A study of Mus musculus with 24 samples.

Results

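Lungs of 10-day-old mice that overexpress the β subunit of the epithelial sodium channel in their airways were compared with lungs of wild-type (WT) littermates, 3 arrays against 3. The 6 samples, of 24 in the series, were taken by their titles (*Scnn1b*-Tg at postnatal day (PND) 10 and WT at PND 10), and the other 18 cover both genotypes at PND 0, 3 and 42. All were male mice of the C57Bl/6N Tac strain, untreated and kept free of specific pathogens, and RNA came from the left lobe. The transgene, *Scnn1b*, is driven in club cells of the airway by the *Scgb1a1* promoter, and WT mice lack it. Each array is 1 pool of RNA from mice of the same age and genotype (the methods give the pool size as 3, the labels list 2 animal numbers per array at PND 10), so n is a number of pools. Transcripts were read on the Affymetrix Mouse Gene ST platform, version 1.0, and levels are log2 intensities after the RMA normalization of the authors. Differences are *Scnn1b*-Tg minus WT on that scale, and rose or fell is written only at an adjusted p of at most 0.05. SEs and p-values come from 1 fit to all 24 arrays, with 1 spread per gene shared by all ages. A gene with several probe sets is represented by the one that is brightest over the 24 arrays.

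The epithelial sodium channel draws sodium, and with it water, out of the liquid that lines the airways. With too much of it the lining dries, mucus becomes concentrated and cilia clear it poorly, which is why this mouse serves as a model of muco-obstructive lung disease. At this age the mouse lung is dividing its saccules into alveoli, a step that needs elastic fibres and contractile fibroblasts, and its airway epithelium is still maturing.

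The arrays were alike in their medians, at 4.79 to 4.86 log2, but 1 of them stood apart. The highest value on *Scnn1b*-Tg replicate 1 was 12.58 log2, against 14.35 to 14.76 on the other 5 arrays. Its 99th percentile was 10.87 against 11.15 to 11.20 log2, so the deposited values of the arrays do not share 1 distribution. The stated quantile normalization comes before the summary to gene levels, so it does not require that they do. Why *Scnn1b*-Tg replicate 1 stood apart was not tested. Of the 100 brightest WT genes, 98 were lower on that array than the mean of the other 5, with a median difference of -0.46 log2. Its correlation with WT arrays was 0.976 to 0.982, that of *Scnn1b*-Tg replicate 3 was 0.986 to 0.988, and that of *Scnn1b*-Tg replicate 2 was 0.988 to 0.992. *Scnn1b*-Tg replicate 1 also lay farthest from the WT mean in 72 of the 87 genes that passed the test below, and replicate 2 lay nearest in 63 of them. Calls are therefore given with and without single arrays.

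Markers of lung epithelium were among the brightest genes. *Sftpc*, the surfactant gene of alveolar type II cells, had levels of 13.80, 13.98 and 13.98 in WT and 12.39, 14.03 and 13.82 in *Scnn1b*-Tg. The club cell gene *Scgb1a1* had levels of 13.50, 13.39 and 13.56 in WT and 12.19, 13.04 and 13.23 in *Scnn1b*-Tg. Both were lower on *Scnn1b*-Tg replicate 1 than on any other array. *Myl7*, an atrial muscle gene, lay between 9.14 and 10.12 log2 in both genotypes.

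In the transgenic lungs 52 genes rose (0.261%) and 35 fell (0.176%) at an adjusted p of at most 0.05, of 19938 genes measured (limma with Benjamini-Hochberg adjustment over 21789 probe sets). Of these, 23 were at least 2-fold higher, which is 0.115% of all genes, and 6 at least 2-fold lower, which is 0.0301%, or 29 in all (0.145%). The higher genes include *Scnn1b* and *Ttr*, both of which the study describes as expressed from the transgene construct, and others encode products of macrophages, neutrophils, airway secretory cells and cilia. The lower ones encode *Clca1*, *Chil4* and *Muc5ac*, made by airway secretory cells, and *Thbs2*, *Fndc1* and *Col6a3*, of the extracellular matrix. Over all genes the median difference was 0.00 log2, and 50.3% lay above 0. In all 87 genes the 3 transgenic values lay clear of the 3 WT values, as they did in 3397 of all genes (17%). Of the 29 called genes, 10 passed in each of the 6 fits that leave out 1 array, namely *Scnn1b*, *Cd177*, *Ttr*, *Clca1*, *Mmp12*, *Bst1*, *Thbs2*, *Sncg*, *Anxa8* and *Cfap52*. Without *Scnn1b*-Tg replicate 1, 11 of the 29 passed (the same 10 and *Chil4*). The calls were counted over probe sets as well, 33 with all arrays (0.151%). Without WT replicate 1, 2 or 3 there were 16, 14 and 30, and without *Scnn1b*-Tg replicate 1, 2 or 3 there were 10, 59 and 38. Of the 87 passing genes 62, 66 and 32 missed the threshold without WT replicate 1, 2 or 3, and 69, 12 and 36 without *Scnn1b*-Tg replicate 1, 2 or 3, while none changed direction.

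**Figure D1:**
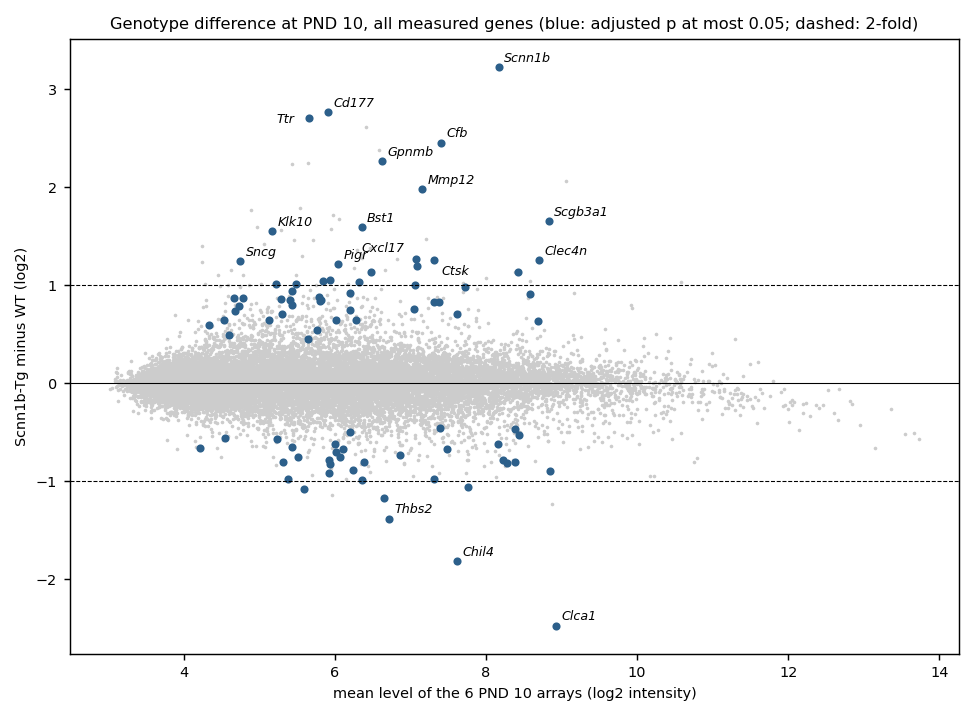
Difference between *Scnn1b*-Tg and WT at PND 10 (log2, y axis) against the mean level of the 6 arrays (log2 intensity, x axis), 1 point per gene. Blue points are the 87 genes with an adjusted p of at most 0.05, dashed lines mark 2-fold, and passing genes beyond 1.2 log2 are named, from *Scnn1b* at 3.22 to *Clca1* at -2.47.

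The transgene was read first. *Scnn1b*, on mouse chromosome 7, had levels of 6.37, 6.66 and 6.65 in WT and 9.70, 9.62 and 10.01 in *Scnn1b*-Tg. The groups stood far apart, and *Scnn1b* rose by 3.22 log2 (SE 0.26, limma, adjusted p = 6.75e-07), 9.33-fold. The array cannot tell transgene from native transcript. The other pore subunits of the channel did not pass: *Scnn1a* differed by 0.39 (adjusted p = 0.696) and *Scnn1g* by 0.09 (adjusted p = 0.973) log2 in limma. Of the 14 sodium channel genes measured, which include proteases that activate the channel and their inhibitors, only *Scnn1b* passed, and the median was 0.17 log2. *Ttr*, the gene of the thyroid hormone and retinol carrier transthyretin, was the other gene that passed at all 4 ages. The study attributes its raised level to the construct, and the array cannot tell the sources apart. Its levels were 4.17, 4.17 and 4.56 in WT and 6.90, 7.28 and 6.85 in *Scnn1b*-Tg, with no overlap. *Ttr* rose by 2.71 log2 (SE 0.31, limma, adjusted p = 6.46e-05), and passed whichever array was left out (adjusted p at most 0.00134). At PND 0, 3 and 42 its differences were 1.92, 1.89 and 2.54 log2.

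Macrophage and lysosome genes were higher as a group in transgenic lungs. Of the 71 genes on this list, 5 rose and 0 fell, the median was 0.44 log2, and 65 lay above 0. At an unadjusted p of at most 0.05, 38 were higher (53.5%, against 4.14% of all genes) and 0 were lower (4.12% of all genes). The list level, the mean of its members, was 6.91 to 6.99 log2 in WT and 7.34 to 7.58 in *Scnn1b*-Tg, without overlap. Left out one at a time, the arrays moved the list median only between 0.37 and 0.47 log2, but without *Scnn1b*-Tg replicate 1 a single member passed. In whole lung RNA more macrophages cannot be told apart from more RNA per macrophage, and the same holds for the other cell types here.

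*Gpnmb*, a glycoprotein gene of lipid-laden and activated macrophages, changed most on this list. Its levels were 5.65, 5.62 and 5.19 in WT and 8.31, 7.33 and 7.62 in *Scnn1b*-Tg. All transgenic pools were above all WT pools, with replicate 1 the highest. *Gpnmb* rose by 2.27 log2 (SE 0.38, limma, adjusted p = 0.0061), 4.81-fold, and missed the threshold when *Scnn1b*-Tg replicate 1 was left out (adjusted p up to 0.0806). *Mmp12*, the gene of macrophage elastase, which degrades elastin, had levels of 6.50, 6.60 and 5.40 in WT and 8.41, 7.65 and 8.37 in *Scnn1b*-Tg. WT replicate 3 was the lowest pool, and no WT pool reached a transgenic one. *Mmp12* rose by 1.98 log2 (SE 0.28, limma, adjusted p = 0.00125), 3.94-fold, and passed whichever array was left out (adjusted p at most 0.0147).

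The other passing members are lysosomal. *Ctsk* encodes the collagen-cleaving protease cathepsin K, and its levels were 6.73, 6.64 and 6.70 in WT and 8.26, 7.75 and 7.82 in *Scnn1b*-Tg. It rose by 1.25 log2 (SE 0.21, limma, adjusted p = 0.00667) and missed the threshold when WT replicate 2 or *Scnn1b*-Tg replicate 1 was left out (adjusted p up to 0.0895). *Cd68*, a lysosomal membrane protein used as a macrophage marker, had levels of 7.88, 7.83 and 7.86 in WT and 9.27, 8.70 and 9.0 in *Scnn1b*-Tg. WT pools lay within 0.05 log2 of each other, and every transgenic pool was above them. *Cd68* rose by 1.13 log2 (SE 0.24, limma, adjusted p = 0.0363) but missed the threshold when WT replicate 1, 2 or 3 or *Scnn1b*-Tg replicate 1 or 3 was left out (adjusted p up to 0.36). *Mcoln3* encodes a lysosomal cation channel, and its levels were 4.72, 4.73 and 4.69 in WT and 5.81, 5.64 and 5.71 in *Scnn1b*-Tg. It rose by 1.01 log2 (SE 0.19, limma, adjusted p = 0.0132) and missed the threshold when WT replicate 1 or 2 or *Scnn1b*-Tg replicate 1 was left out (adjusted p up to 0.114). Outside the list, *Clec4n*, the gene of the fungal pattern receptor dectin-2, rose by 1.25 log2 (SE 0.22, limma, adjusted p = 0.00976), and *Mpeg1*, the gene of the pore-forming protein perforin-2, by 0.91 log2 (SE 0.19, limma, adjusted p = 0.0319). *Glipr1* rose by 1.04 log2 (SE 0.20, limma, adjusted p = 0.0205). *Clec4n* missed the threshold when WT replicate 1 or 2 or *Scnn1b*-Tg replicate 1 was left out (adjusted p up to 0.111), *Mpeg1* missed the threshold when WT replicate 1, 2 or 3 or *Scnn1b*-Tg replicate 1 or 3 was left out (adjusted p up to 0.327), and *Glipr1* missed the threshold when WT replicate 2 or 3 or *Scnn1b*-Tg replicate 1 was left out (adjusted p up to 0.28). *Trem2*, a lipid receptor gene of macrophages, missed the threshold at 0.73 (adjusted p = 0.0515). The general macrophage markers *Csf1r* and *Adgre1* differed by 0.25 (adjusted p = 0.87) and 0.63 (adjusted p = 0.235) log2, *Marco* by 0.61 (adjusted p = 0.65), and the alveolar macrophage lectin gene *Siglecf* by 0.05 (adjusted p = 0.997), and none of them passed.

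Promoters of *Mmp12* and *Gpnmb* are shown because these are the largest rises of macrophage genes and both hold the same letters. The 300-base windows, from 250 bases before to 50 after a start, come from RefSeq (GRCm38.p6), and capitals mark TGACTCA, the AP-1 motif, on either strand. The *Mmp12* window is chr9:7347124-7347423, plus strand, and that of *Gpnmb* is chr6:49036268-49036567, plus strand.
Mmp12: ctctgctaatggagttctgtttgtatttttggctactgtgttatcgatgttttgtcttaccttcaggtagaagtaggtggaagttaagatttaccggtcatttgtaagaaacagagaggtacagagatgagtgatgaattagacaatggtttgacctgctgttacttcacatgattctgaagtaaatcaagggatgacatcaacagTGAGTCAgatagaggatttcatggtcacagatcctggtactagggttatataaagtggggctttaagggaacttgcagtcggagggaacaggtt
Gpnmb: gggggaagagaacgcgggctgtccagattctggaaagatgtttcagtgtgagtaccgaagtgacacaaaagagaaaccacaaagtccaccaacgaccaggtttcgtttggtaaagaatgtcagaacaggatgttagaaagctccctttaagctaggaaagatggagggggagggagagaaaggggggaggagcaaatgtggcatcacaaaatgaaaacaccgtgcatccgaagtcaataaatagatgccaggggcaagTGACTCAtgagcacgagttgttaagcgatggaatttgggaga
In *Mmp12* the match begins 44 bases before the start. A second *Mmp12* start in RefSeq has no AP-1 match and holds GAGGAAGT, the motif of PU.1, a factor of myeloid cells, which was in 3.24% of all genes with a window and in 6 of 56 macrophage and lysosome genes. The AP-1 motif was in 5.41% of the 15614 measured genes with a window (844 genes), in 7 of 56 macrophage and lysosome genes and in 5 of 38 genes that rose. It was in 0 of 24 genes that fell. These are counts of letters, with no test.

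Of the neutrophil list 2 surface proteins passed. *Cd177*, a surface glycoprotein of activated neutrophils, had levels of 4.49, 4.58 and 4.51 in WT and 8.67, 5.93 and 7.27 in *Scnn1b*-Tg. WT pools lay within 0.10 log2, while the transgenic pools spread over 2.74 log2. *Cd177* rose by 2.76 log2 (SE 0.42, limma, adjusted p = 0.00274), 6.78-fold, and passed whichever array was left out (adjusted p at most 0.0218). *Bst1*, an ectoenzyme of myeloid and stromal cells, had levels of 5.84, 5.48 and 5.36 in WT and 7.53, 6.80 and 7.12 in *Scnn1b*-Tg. It rose by 1.59 log2 (SE 0.25, limma, adjusted p = 0.0033) and passed whichever array was left out (adjusted p at most 0.0469). *Clec4e* and *Clec4d*, receptor genes for microbial glycolipids, differed by 2.24 (adjusted p = 0.088) and 1.72 (adjusted p = 0.112) log2 in limma, with the groups apart but below the threshold. Of 31 members measured, 2 rose, 0 fell, and the median was 0.20 log2. At an unadjusted p of at most 0.05, 8 were higher (25.8%, against 4.14% of all genes) and 0 lower. *Pglyrp1*, a peptidoglycan recognition protein gene of neutrophil granules, had levels of 7.55, 7.39 and 7.46 in WT and 8.97, 8.15 and 8.50 in *Scnn1b*-Tg, without overlap, and differed by 1.08 (adjusted p = 0.136). *Ltf*, the lactoferrin gene, differed by 1.11 (adjusted p = 0.341) with overlap. Other genes typical of neutrophils did not pass either. *Ly6g* differed by 0.11 (adjusted p = 0.987), *Csf3r* by 0.18 (adjusted p = 0.951), *Cxcr2* by 0.12 (adjusted p = 0.981), *Mmp8* by -0.19 (adjusted p = 0.989) and *Ngp* by -0.03 (adjusted p = 0.998) log2 (limma). *S100a8* had levels of 8.31, 7.86 and 7.46 in WT and 8.22, 7.69 and 8.45 in *Scnn1b*-Tg, which overlapped. *S100a9* differed by 0.39 (adjusted p = 0.956). The list level was 5.60 to 5.78 in WT and 5.83 to 6.34 in *Scnn1b*-Tg.

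Acute phase and airway defence genes were higher. Of 48, 4 rose and 0 fell, the median was 0.35 log2, and 35 lay above 0. The median was 0.26 log2 and 1 member passed without *Scnn1b*-Tg replicate 1. At an unadjusted p of at most 0.05, 17 were higher (35.4%, against 4.14% of all genes) and 1 lower (2.08%, against 4.12%). *Cfb*, complement factor B of the alternative pathway, had levels of 6.20, 6.30 and 6.04 in WT and 9.21, 8.18 and 8.51 in *Scnn1b*-Tg. The lowest transgenic pool was 1.88 log2 above the highest WT pool. *Cfb* rose by 2.45 log2 (SE 0.44, limma, adjusted p = 0.00976), 5.47-fold, and missed the threshold when WT replicate 1 or 2 or *Scnn1b*-Tg replicate 1 was left out (adjusted p up to 0.117). *Clu* encodes clusterin, a secreted chaperone that blocks the terminal complement complex. Its levels were 7.28, 7.16 and 7.26 in WT and 8.33, 8.12 and 8.20 in *Scnn1b*-Tg. *Clu* rose by 0.98 log2 (SE 0.12, limma, adjusted p = 0.000225), and passed whichever array was left out (adjusted p at most 0.00435). *Cxcl17*, a chemokine gene of mucosal epithelium, rose by 1.27 log2 (SE 0.24, limma, adjusted p = 0.0185) and missed the threshold when WT replicate 1 or 3 or *Scnn1b*-Tg replicate 1 was left out (adjusted p up to 0.237). *Pigr*, which carries IgA across epithelium, had levels of 5.62, 5.34 and 5.35 in WT and 7.40, 5.98 and 6.57 in *Scnn1b*-Tg. It rose by 1.21 log2 (SE 0.25, limma, adjusted p = 0.0245), with replicate 1 far above the others, and missed the threshold when WT replicate 1, 2 or 3 or *Scnn1b*-Tg replicate 1 or 3 was left out (adjusted p up to 0.28). Other defence and chemokine genes had large differences that did not pass. *Saa3*, a serum amyloid gene, had levels of 8.46, 7.70 and 7.91 in WT and 10.30, 10.46 and 9.50 in *Scnn1b*-Tg and differed by 2.06 (adjusted p = 0.588). *Ccl3* and *Cxcl5*, chemokine genes for macrophages and neutrophils, differed by 2.61 (adjusted p = 0.0797) and 1.79 (adjusted p = 0.341) log2, with no overlap of the groups in either. The fit takes 1 spread per gene from all ages, and WT pools at PND 3 had SDs of 2.27 (*Ccl3*) and 2.09 log2 (*Cxcl5*). At PND 10 the SDs of *Ccl3* were 0.17 in WT and 0.34 in *Scnn1b*-Tg. Of 35 chemokine ligands only *Cxcl17* passed, and of 44 inflammatory cytokines and receptors 0 passed in limma. Of those 44, 8 were higher (18.2%, against 4.14% of all genes) and 0 lower at an unadjusted p of at most 0.05. *Tlr2* came nearest at 1.01 (adjusted p = 0.0541).

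**Figure D2:**
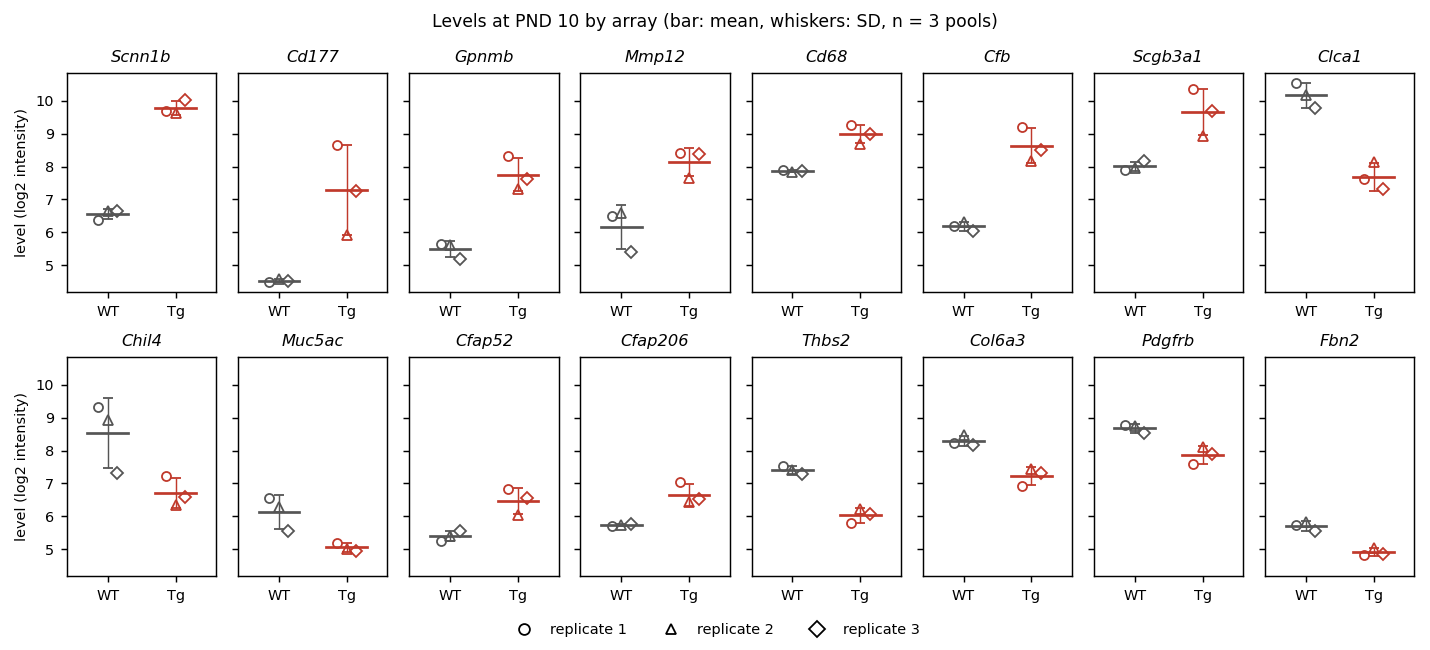
Levels of 16 genes at PND 10 (log2 intensity, y axis) in WT (grey) and *Scnn1b*-Tg (red), 1 symbol per pool by replicate number, with the mean as a bar and the SD as whiskers (n = 3). The groups do not overlap in any panel, and transgenic replicate 1 (circles) is the highest pool for *Cd177*, *Cfb* and *Scgb3a1* and the lowest for *Thbs2*, *Col6a3* and *Pdgfrb*.

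Secretory genes of the airway went both ways. Of 32 goblet cell and mucus genes, 2 fell (*Clca1*, *Muc5ac*) and 2 rose (*Agr3*, *Pigr*), and the median was 0.02 log2. *Clca1*, a secreted protein that goblet cells release with mucus, is on chromosome 3. Its levels were 10.53, 10.17 and 9.79 in WT and 7.62, 8.15 and 7.31 in *Scnn1b*-Tg. The lowest WT pool was 1.64 log2 above the highest transgenic pool. *Clca1* fell by 2.47 log2 (SE 0.22, limma, adjusted p = 1.88e-06) in the transgenic lungs, 5.54-fold, and passed whichever array was left out (adjusted p at most 4.52e-05). *Muc5ac*, the gel-forming mucin gene of goblet cells, had levels of 6.54, 6.29 and 5.56 in WT and 5.20, 5.01 and 4.95 in *Scnn1b*-Tg. The groups were separate by 0.36 log2. *Muc5ac* fell by 1.08 log2 (SE 0.20, limma, adjusted p = 0.015) and missed the threshold when WT replicate 1 or 2 or *Scnn1b*-Tg replicate 1 or 3 was left out (adjusted p up to 0.121). The other gel-forming mucin gene, *Muc5b*, differed by 0.03 (adjusted p = 0.997), with overlapping groups. The trefoil peptide gene *Tff2* differed by -0.52 (adjusted p = 0.74) log2, *Agr2*, which folds mucins, by -0.29 (adjusted p = 0.383), and *Spdef*, a transcription factor gene of goblet cells, by -0.14 (adjusted p = 0.91). *Slc26a4*, which exchanges chloride for bicarbonate, differed by -0.82 (adjusted p = 0.175). *Agr3*, a relative of *Agr2* found in ciliated cells, had levels of 4.19, 4.25 and 4.48 in WT and 4.86, 5.28 and 4.98 in *Scnn1b*-Tg. *Agr3* rose by 0.73 log2 (SE 0.13, limma, adjusted p = 0.0132) and missed the threshold when WT replicate 1 or 2 or *Scnn1b*-Tg replicate 2 was left out (adjusted p up to 0.0907).

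*Chil4*, a chitinase-like protein gene of airway epithelium, fell as well. Its levels were 9.34, 8.93 and 7.32 in WT and 7.22, 6.34 and 6.58 in *Scnn1b*-Tg. WT replicate 3 was the lowest WT pool, only 0.11 log2 above the highest transgenic pool. *Chil4* fell by 1.82 log2 (SE 0.32, limma, adjusted p = 0.00976), 3.52-fold, and missed the threshold when WT replicate 1 or 2 was left out (adjusted p up to 0.0907). Its relative *Chil3* differed by -0.53 (adjusted p = 0.8), and of 9 members of the family only *Chil4* passed. Both *Chil4* and *Clca1* are known targets of interleukin-13 and STAT6 in mouse airways. The type 2 response list does not hold *Clca1*, *Chil4* or *Muc5ac*, which were counted on other lists. Of its 35 genes 0 passed, and the median was -0.08 log2. Of the 35, 4 were lower (11.4%, against 4.12% of all genes) and 1 higher (2.86%, against 4.14%) at an unadjusted p of at most 0.05. The chemokine gene *Ccl17* differed by -0.94 (adjusted p = 0.189) log2, the lectin gene *Mgl2* by -0.53 (adjusted p = 0.205), and *Ccl24*, the gene of eotaxin-2, by -0.76 (adjusted p = 0.429). The *Chil4* window (chr3:106219430-106219729, minus strand, RefSeq, GRCm38.p6) is shown because *Chil4* fell, as did *Clca1* and *Muc5ac*, and capitals mark its match to TTCNNNGAA, the STAT motif.
Chil4: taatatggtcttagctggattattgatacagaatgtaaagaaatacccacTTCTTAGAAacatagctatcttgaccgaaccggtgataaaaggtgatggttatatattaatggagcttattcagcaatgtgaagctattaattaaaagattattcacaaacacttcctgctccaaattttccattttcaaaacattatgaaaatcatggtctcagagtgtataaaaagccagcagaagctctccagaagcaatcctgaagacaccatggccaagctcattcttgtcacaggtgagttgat
The match starts 200 bases before the start site. The motif was in 8.99% of all 15614 genes with a window and in 3 of 26 type 2 response genes.

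*Scgb3a1*, a secretoglobin gene of larger airways, rose. Its levels were 7.90, 7.96 and 8.15 in WT and 10.35, 8.93 and 9.70 in *Scnn1b*-Tg. WT pools lay within 0.25 log2, and the transgenic pools spread over 1.43 log2 above them. *Scgb3a1* rose by 1.65 log2 (SE 0.34, limma, adjusted p = 0.0259), 3.14-fold, and missed the threshold when WT replicate 1, 2 or 3 or *Scnn1b*-Tg replicate 1 or 3 was left out (adjusted p up to 0.328). *Scgb1a1*, whose promoter drives the transgene, differed by -0.66 (adjusted p = 0.434) with replicate 1 and by -0.35 log2 without it. The club cell genes *Scgb3a2* and *Cyp2f2* differed by 0.11 (adjusted p = 0.97) and -0.32 (adjusted p = 0.897) (limma). Of 24 club cell genes only *Scgb3a1* passed, and the median was -0.14 log2. Further epithelial genes rose. *Tmc5*, a transmembrane channel-like gene, rose by 0.87 log2 (SE 0.14, limma, adjusted p = 0.00366) and passed whichever array was left out (adjusted p at most 0.0392). *Klk10*, a kallikrein-related peptidase gene of squamous epithelium, had levels of 4.33, 4.17 and 4.69 in WT and 6.33, 5.71 and 5.79 in *Scnn1b*-Tg. It rose by 1.55 log2 (SE 0.26, limma, adjusted p = 0.00553) and missed the threshold when WT replicate 2 or *Scnn1b*-Tg replicate 1 was left out (adjusted p up to 0.0733). *Slc39a4*, an epithelial zinc importer gene, rose by 1.0 log2 (SE 0.22, limma, adjusted p = 0.0421) but missed the threshold whichever array was left out (adjusted p up to 0.386). *Aoc1*, the gene of diamine oxidase, which degrades histamine, rose by 0.88 log2 (SE 0.16, limma, adjusted p = 0.00976) and missed the threshold when WT replicate 1 or 2 or *Scnn1b*-Tg replicate 1 was left out (adjusted p up to 0.109). *Cyp2s1*, an extrahepatic cytochrome P450 gene, rose by 0.71 log2 (SE 0.16, limma, adjusted p = 0.0468) but missed the threshold when WT replicate 1, 2 or 3 or *Scnn1b*-Tg replicate 1 or 3 was left out (adjusted p up to 0.444).

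Genes of motile cilia were higher across the list. Of 125 genes of the axoneme and its assembly, 6 rose and 0 fell, the median was 0.31 log2, and 113 lay above 0. At an unadjusted p of at most 0.05, 61 were higher (48.8%, against 4.14% of all genes) and 0 lower, and the members ran from -0.08 to 1.06. The list level was 5.06 to 5.09 log2 in WT and 5.30 to 5.54 in *Scnn1b*-Tg, without overlap. Without *Scnn1b*-Tg replicate 1 the median was 0.22 log2 and 1 member passed. All 125 differences but that of *Cfap52* were under 2-fold.

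*Cfap52*, a protein inside the doublet microtubules, led the list. Its levels were 5.25, 5.41 and 5.56 in WT and 6.82, 6.03 and 6.54 in *Scnn1b*-Tg. *Cfap52* rose by 1.06 log2 (SE 0.16, limma, adjusted p = 0.00315), 2.08-fold, and passed whichever array was left out (adjusted p at most 0.0392). *Cfap206*, part of the base of a radial spoke, had levels of 5.70, 5.73 and 5.77 in WT and 7.03, 6.42 and 6.51 in *Scnn1b*-Tg. It rose by 0.92 log2 (SE 0.17, limma, adjusted p = 0.0113) and missed the threshold when WT replicate 1 or 2 or *Scnn1b*-Tg replicate 1 was left out (adjusted p up to 0.145). *Drc3*, of the nexin-dynein regulatory complex that limits sliding between doublets, had levels of 5.54, 5.42 and 5.22 in WT and 6.73, 5.93 and 6.06 in *Scnn1b*-Tg. It rose by 0.85 log2 (SE 0.18, limma, adjusted p = 0.0363). *Nme5* and *Ak8*, nucleotide kinase genes of the axoneme, rose by 0.83 log2 (SE 0.16, limma, adjusted p = 0.0186) and 0.75 log2 (SE 0.16, limma, adjusted p = 0.0359). *Capsl*, a calcium-binding protein gene, rose by 0.75 log2 (SE 0.14, limma, adjusted p = 0.015). The radial spoke head gene *Rsph1* missed the threshold at 0.82 (adjusted p = 0.0544). *Drc3* missed the threshold when WT replicate 1, 2 or 3 or *Scnn1b*-Tg replicate 1 was left out (adjusted p up to 0.41), *Nme5* missed the threshold when WT replicate 1 or 2 or *Scnn1b*-Tg replicate 1 was left out (adjusted p up to 0.237), *Ak8* missed the threshold when WT replicate 1, 2 or 3 or *Scnn1b*-Tg replicate 1 or 3 was left out (adjusted p up to 0.341) and *Capsl* missed the threshold when WT replicate 1 or 2 or *Scnn1b*-Tg replicate 1 was left out (adjusted p up to 0.177). *Saxo2*, a microtubule-stabilizing protein gene off the list, had levels of 5.07, 4.8 and 5.08 in WT and 5.75, 5.81 and 5.94 in *Scnn1b*-Tg. It rose by 0.85 log2 (SE 0.13, limma, adjusted p = 0.00334) and passed whichever array was left out (adjusted p at most 0.0424). *Tmem212*, another gene of ciliated cells, rose by 0.83 log2 (SE 0.16, limma, adjusted p = 0.0187). *Kcnrg* and *Fam216b* rose by 1.13 log2 (SE 0.19, limma, adjusted p = 0.00619) and 1.05 log2 (SE 0.20, limma, adjusted p = 0.0186). *Kcnrg* missed the threshold when WT replicate 1 or *Scnn1b*-Tg replicate 1 was left out (adjusted p up to 0.0844). *Tmem212* missed the threshold when WT replicate 1 or 2 or *Scnn1b*-Tg replicate 1 was left out (adjusted p up to 0.254), and *Fam216b* missed the threshold when WT replicate 2 or 3 or *Scnn1b*-Tg replicate 1 was left out (adjusted p up to 0.24).

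Of 26 regulators that switch on motile cilia 0 passed in limma, and the median was 0.12 log2. Among them 2 were higher (7.69%, against 4.14% of all genes) and 1 lower (3.85%, against 4.12%) at an unadjusted p of at most 0.05. *Foxj1*, the master transcription factor gene of motile cilia, had levels of 5.20, 5.39 and 5.30 in WT and 5.73, 5.44 and 5.50 in *Scnn1b*-Tg. The pools separated by 0.05 log2, and *Foxj1* differed by 0.26 (adjusted p = 0.818), 95% confidence interval -0.13 to 0.65. The ciliary motor gene *Dnah5* differed by 0.51 (adjusted p = 0.423), *Tekt1* by 0.42 (adjusted p = 0.118) and *Ccdc39* by 0.19 (adjusted p = 0.896).

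RFX transcription factors control cilia genes through a sequence whose half-site reads GTTGCCA, and 2 windows with it are shown. *Maats1* and *Pifo*, cilia genes that are not on the list, were chosen after their values were seen. *Maats1* had levels of 4.42, 4.28 and 4.32 in WT and 5.62, 4.78 and 4.97 in *Scnn1b*-Tg. *Pifo* had levels of 4.78, 4.94 and 5.13 in WT and 5.95, 5.55 and 5.47 in *Scnn1b*-Tg. Neither overlapped between groups. *Maats1* rose by 0.79 log2 (SE 0.17, limma, adjusted p = 0.0359) and *Pifo* by 0.71 log2 (SE 0.16, limma, adjusted p = 0.0486). *Maats1* missed the threshold when WT replicate 1, 2 or 3 or *Scnn1b*-Tg replicate 1 or 3 was left out (adjusted p up to 0.367), and *Pifo* missed the threshold whichever array was left out (adjusted p up to 0.453). Their windows are chr16:38341811-38342110, minus strand, and chr3:106001448-106001747, minus strand (RefSeq, GRCm38.p6), with the half-site in capitals on either strand.
Maats1: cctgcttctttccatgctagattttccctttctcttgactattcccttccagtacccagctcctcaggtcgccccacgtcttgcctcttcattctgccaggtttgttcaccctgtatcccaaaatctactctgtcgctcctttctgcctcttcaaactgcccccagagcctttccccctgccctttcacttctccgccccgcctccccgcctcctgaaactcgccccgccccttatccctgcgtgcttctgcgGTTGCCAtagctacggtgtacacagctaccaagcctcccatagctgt
Pifo: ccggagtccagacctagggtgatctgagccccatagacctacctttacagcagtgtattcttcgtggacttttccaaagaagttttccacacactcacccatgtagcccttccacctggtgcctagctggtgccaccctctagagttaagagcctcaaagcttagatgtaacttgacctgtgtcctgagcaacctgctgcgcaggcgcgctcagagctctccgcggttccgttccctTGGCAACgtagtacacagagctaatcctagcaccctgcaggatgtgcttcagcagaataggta
In *Pifo* the match begins 13 bases before the start. The half-site was in 29 of the 109 cilia genes with a window (26.6%) and in 4.69% of all 15614 genes. Among the genes that rose it was in 6 of 38, and among those that fell in 1 of 24.

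**Figure D3:**
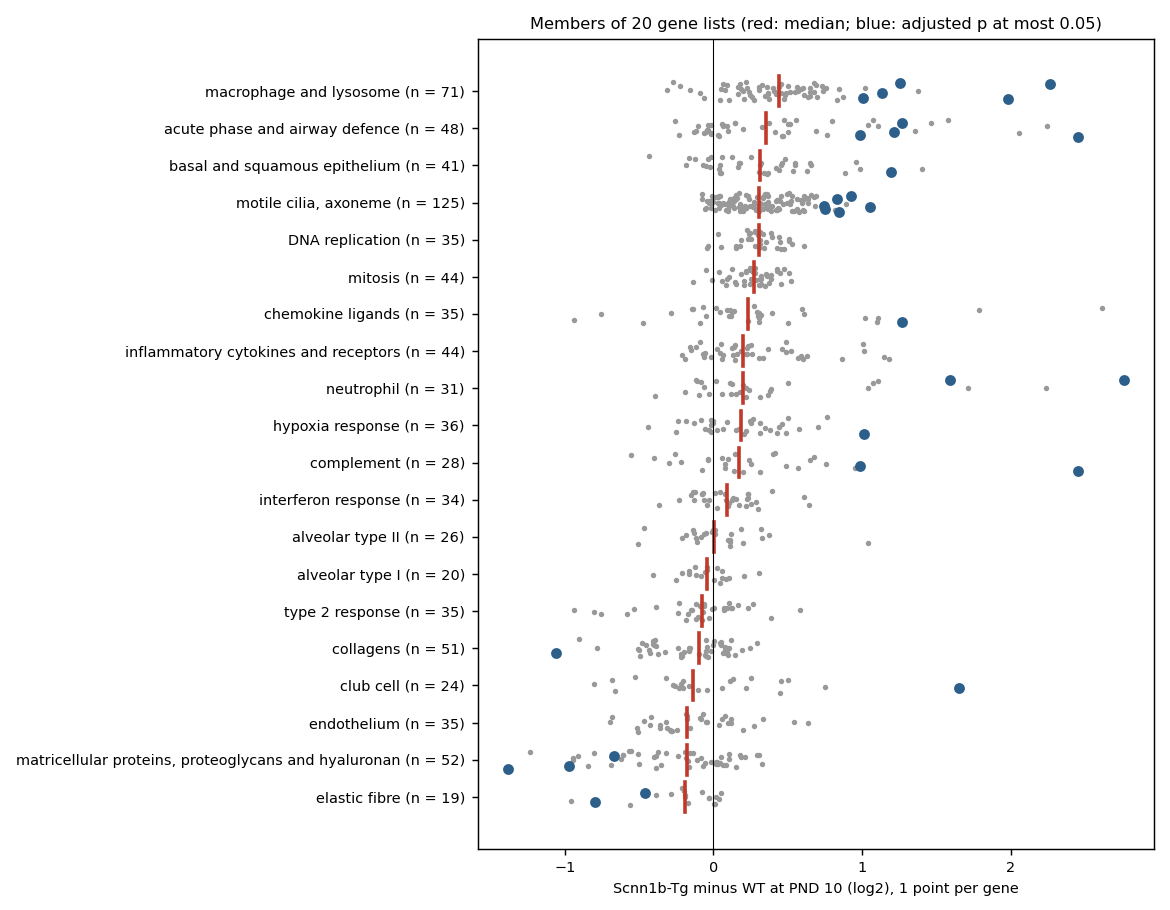
Difference between *Scnn1b*-Tg and WT at PND 10 (log2, x axis) of each member of 20 gene lists (rows, with the number of members), 1 point per gene. Red bars are medians, from -0.19 for elastic fibre genes to 0.44 for macrophage and lysosome genes, and blue points are genes with an adjusted p of at most 0.05.

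Several genes of the extracellular matrix and stroma fell. *Thbs2*, thrombospondin 2, a matrix protein that restrains vessel growth and collagen assembly, is on chromosome 17. Its levels were 7.54, 7.41 and 7.28 in WT and 5.79, 6.22 and 6.08 in *Scnn1b*-Tg. The pools of a genotype lay within 0.43 log2 and the groups were 1.06 log2 apart. *Thbs2* fell by 1.38 log2 (SE 0.13, limma, adjusted p = 6.72e-06), 2.6-fold, and passed whichever array was left out (adjusted p at most 0.00018). *Cemip*, which breaks down hyaluronan, had levels of 6.16, 5.83 and 5.59 in WT and 4.68, 5.14 and 4.85 in *Scnn1b*-Tg. It fell by 0.97 log2 (SE 0.17, limma, adjusted p = 0.00976) and missed the threshold when WT replicate 1 or 2 or *Scnn1b*-Tg replicate 1 was left out (adjusted p up to 0.117). *Agrn*, a basement membrane proteoglycan gene, fell by 0.67 log2 (SE 0.14, limma, adjusted p = 0.0386) but missed the threshold when WT replicate 1, 2 or 3 or *Scnn1b*-Tg replicate 1 or 3 was left out (adjusted p up to 0.423). *Tnc*, tenascin C of the developing lung, had levels of 9.31, 9.83 and 9.33 in WT and 7.93, 8.51 and 8.33 in *Scnn1b*-Tg without overlap and differed by -1.24 (adjusted p = 0.0562). *Hspg2*, the gene of perlecan, differed by -0.85 (adjusted p = 0.0655) and *Npnt* by -0.55 (adjusted p = 0.0625). Of 52 matricellular, proteoglycan and hyaluronan genes 3 fell and 0 rose, with a median of -0.18 log2. The median was -0.16 log2 and 1 member passed without *Scnn1b*-Tg replicate 1. At an unadjusted p of at most 0.05, 17 were lower (32.7%, against 4.12% of all genes) and 1 higher.

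Among 51 collagen genes and their processing enzymes 1 fell. *Col6a3*, a chain of the microfibrillar collagen VI, had levels of 8.22, 8.47 and 8.18 in WT and 6.93, 7.44 and 7.32 in *Scnn1b*-Tg. It fell by 1.06 log2 (SE 0.20, limma, adjusted p = 0.017) and missed the threshold when WT replicate 1 or 2 or *Scnn1b*-Tg replicate 1 was left out (adjusted p up to 0.218). The fibril-associated collagen gene *Col12a1* differed by -0.91 (adjusted p = 0.0773), *Col14a1* by -0.79 (adjusted p = 0.122), and the procollagen protease gene *Bmp1* by -0.48 (adjusted p = 0.0582). The list median was -0.10 log2, and 16 members were lower (31.4%, against 4.12% of all genes) and 0 higher at an unadjusted p of at most 0.05. The median was -0.12 log2 and 0 members passed without *Scnn1b*-Tg replicate 1. Of 19 elastic fibre genes 2 fell. *Fbn2*, fibrillin-2, the microfibril protein of developing tissue, had levels of 5.74, 5.84 and 5.55 in WT and 4.84, 5.05 and 4.84 in *Scnn1b*-Tg. It fell by 0.80 log2 (SE 0.11, limma, adjusted p = 0.00151) and passed whichever array was left out (adjusted p at most 0.0194). *Ltbp4*, which scaffolds elastin and holds latent TGF-β, had levels of 7.73, 7.66 and 7.46 in WT and 7.09, 7.22 and 7.17 in *Scnn1b*-Tg. It fell by 0.46 log2 (SE 0.10, limma, adjusted p = 0.035) and missed the threshold when WT replicate 1 or 2 or *Scnn1b*-Tg replicate 1 or 3 was left out (adjusted p up to 0.296). *Ltbp2* and *Eln*, the elastin gene, differed by -0.96 (adjusted p = 0.0613) and -0.56 (adjusted p = 0.414) log2 (limma). The list median was -0.19 log2, and -0.08 without *Scnn1b*-Tg replicate 1. Of the 19, 6 were lower (31.6%, against 4.12% of all genes) and 0 higher at an unadjusted p of at most 0.05.

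*Fndc1* is the gene of a fibronectin domain protein. Its levels were 7.12, 7.56 and 7.0 in WT and 5.81, 6.29 and 6.08 in *Scnn1b*-Tg. It fell by 1.17 log2 (SE 0.22, limma, adjusted p = 0.015) and missed the threshold when WT replicate 1 or 2 or *Scnn1b*-Tg replicate 1 was left out (adjusted p up to 0.177). *Adamts12* and *Adamts10* encode secreted metalloproteinases, the latter of fibrillin microfibrils. They fell by 0.99 log2 (SE 0.19, limma, adjusted p = 0.0186) and 0.97 log2 (SE 0.19, limma, adjusted p = 0.0186). *Pxdn*, which crosslinks collagen IV, fell by 0.90 log2 (SE 0.18, limma, adjusted p = 0.0221), and the collagen receptor gene *Itga2* by 0.88 log2 (SE 0.18, limma, adjusted p = 0.0221). *Dchs1* and *Cdh2*, cadherin genes, fell by 0.92 log2 (SE 0.20, limma, adjusted p = 0.0406) and 0.82 log2 (SE 0.13, limma, adjusted p = 0.00477). *Adamts12* missed the threshold when WT replicate 1 or 2 or *Scnn1b*-Tg replicate 1 or 3 was left out (adjusted p up to 0.237), and *Pxdn* missed the threshold when WT replicate 1 or 2 or *Scnn1b*-Tg replicate 1 was left out (adjusted p up to 0.288). *Adamts10* missed the threshold when WT replicate 1 or 2 or *Scnn1b*-Tg replicate 1 or 3 was left out (adjusted p up to 0.237), and *Itga2* missed the threshold when WT replicate 1 or 2 or *Scnn1b*-Tg replicate 1 was left out (adjusted p up to 0.282). *Dchs1* missed the threshold when WT replicate 1 or 2 or *Scnn1b*-Tg replicate 1 or 3 was left out (adjusted p up to 0.417), and *Cdh2* missed the threshold when *Scnn1b*-Tg replicate 1 was left out (adjusted p up to 0.0601).

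*Pdgfrb*, the receptor gene of pericytes, had levels of 8.79, 8.73 and 8.52 in WT and 7.58, 8.12 and 7.90 in *Scnn1b*-Tg. It fell by 0.81 log2 (SE 0.13, limma, adjusted p = 0.00477) and missed the threshold when *Scnn1b*-Tg replicate 1 was left out (adjusted p up to 0.0601). *Pdgfra*, the receptor gene of alveolar myofibroblasts and their precursors, had levels of 8.35, 8.52 and 8.32 in WT and 7.24, 7.98 and 7.44 in *Scnn1b*-Tg, without overlap, and differed by -0.85 (adjusted p = 0.143). *Aspn* and *Itga8*, of lung myofibroblasts, differed by -0.94 (adjusted p = 0.144) and -0.59 (adjusted p = 0.153). Of 35 myofibroblast, smooth muscle and pericyte genes only *Pdgfrb* passed, and the median was -0.15 log2, or -0.03 without *Scnn1b*-Tg replicate 1. Among them 7 were lower (20%, against 4.12% of all genes) and 1 higher (2.86%, against 4.14%) at an unadjusted p of at most 0.05. *Agt*, angiotensinogen, fell by 0.81 log2 (SE 0.18, limma, adjusted p = 0.0463) but missed the threshold when WT replicate 1, 2 or 3 or *Scnn1b*-Tg replicate 1 or 3 was left out (adjusted p up to 0.453). *Gucy1a1*, *Pde3a* and *Grem1*, named after their values were seen, passed too. They encode a nitric oxide receptor subunit, a phosphodiesterase and an antagonist of BMP, and fell by 0.52 log2 (SE 0.10, limma, adjusted p = 0.0205), 0.73 log2 (SE 0.12, limma, adjusted p = 0.00619) and 0.65 log2 (SE 0.14, limma, adjusted p = 0.0333). *Gucy1a1* missed the threshold when WT replicate 1 or 2 or *Scnn1b*-Tg replicate 1 was left out (adjusted p up to 0.282), *Pde3a* missed the threshold when WT replicate 2 or *Scnn1b*-Tg replicate 1 was left out (adjusted p up to 0.083), and *Grem1* missed the threshold when WT replicate 1, 2 or 3 or *Scnn1b*-Tg replicate 1 was left out (adjusted p up to 0.366). Of 35 endothelial genes 0 passed. The unadjusted p was at most 0.05 for 7 lower genes (20%, against 4.12% of all genes) and 2 higher ones (5.71%, against 4.14%). On the endothelial list *Kdr*, the VEGF receptor gene, differed by -0.68 (adjusted p = 0.118) and *Pecam1* by -0.19 (adjusted p = 0.813).

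A few probe sets that are not the brightest of their gene also fell. *Hmcn1*, a giant basement membrane protein gene, is split over 77 probe sets with a median of -1.18 log2. Of these, 2 passed, and the brightest differed by -0.95 (limma, adjusted p = 0.345). *Fat3* and *Pappa2* had 1 passing probe set each, of 15 and 3.

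Among basal and squamous epithelial genes 1 rose. *Anxa8*, an annexin gene of squamous epithelium, had levels of 6.55, 6.35 and 6.55 in WT and 7.81, 7.50 and 7.72 in *Scnn1b*-Tg. It rose by 1.19 log2 (SE 0.18, limma, adjusted p = 0.0021), and passed whichever array was left out (adjusted p at most 0.024). The keratin gene of basal cells *Krt5* had levels of 4.30, 4.11 and 4.34 in WT and 6.09, 4.13 and 4.40 in *Scnn1b*-Tg, high in *Scnn1b*-Tg replicate 1 alone. *Krt5* differed by 0.63 (adjusted p = 0.797) with that pool and by 0.02 log2 without it. *Krt14* differed by 0.44 (adjusted p = 0.0878), and *Trp63*, the transcription factor gene of basal cells, by -0.03 (adjusted p = 0.997). Of 41 members only *Anxa8* passed. The median was 0.31 log2 and 0.08 without *Scnn1b*-Tg replicate 1.

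Hypoxia was read because mucus plugging can lower oxygen in airways. Of 36 genes that respond to low oxygen 1 rose, the median was 0.19 log2, and 8 were higher (22.2%, against 4.14% of all genes) and 0 lower at an unadjusted p of at most 0.05. *Ankrd37*, a direct target of HIF-1, had levels of 4.72, 5.0 and 5.22 in WT and 6.05, 6.21 and 5.70 in *Scnn1b*-Tg. It rose by 1.01 log2 (SE 0.22, limma, adjusted p = 0.0359) and missed the threshold when WT replicate 1 or 2 or *Scnn1b*-Tg replicate 1 or 2 was left out (adjusted p up to 0.276). Of the glycolytic enzyme genes *Pfkl* differed by 0.77 (adjusted p = 0.102) log2, *Aldoa* by 0.46 (adjusted p = 0.174) and *Tpi1* by 0.43 (adjusted p = 0.284), and none overlapped between the groups. These were named for their low p. Over the 36 members 12 were higher without overlap (33.3%, against 8.93% of all genes) and 2 lower (5.56%, against 8.11%), and 13 members lay below 0. The *Ankrd37* window (chr8:45999801-46000100, minus strand, RefSeq, GRCm38.p6) is shown with ACGTGC, the core of a hypoxia response element, in capitals.
Ankrd37: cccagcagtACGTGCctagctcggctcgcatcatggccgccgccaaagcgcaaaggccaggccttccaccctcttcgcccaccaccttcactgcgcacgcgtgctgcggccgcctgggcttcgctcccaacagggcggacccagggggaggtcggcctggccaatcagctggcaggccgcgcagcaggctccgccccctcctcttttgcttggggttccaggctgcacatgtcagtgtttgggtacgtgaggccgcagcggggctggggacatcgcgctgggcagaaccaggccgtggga
The letters ACGTGC, on either strand, were in 16 of 31 hypoxia genes with a window (51.6%) and in 7.74% of all 15614 genes. Of the genes that rose 2 of 38 held them.

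*Sncg*, a synuclein gene, had levels of 4.21, 3.96 and 4.20 in WT and 5.64, 5.03 and 5.43 in *Scnn1b*-Tg. It rose by 1.24 log2 (SE 0.14, limma, adjusted p = 6.46e-05), 2.37-fold, and passed whichever array was left out (adjusted p at most 0.00134). It was the only 1 of 22 nerve and neuroendocrine genes to pass, and the median of that list was -0.01 log2. Other passing genes fall outside the lists above. *Ffar4* and *Slco1a5*, a fatty acid receptor and an organic anion transporter, rose by 0.86 log2 (SE 0.19, limma, adjusted p = 0.0486) and 0.87 log2 (SE 0.17, limma, adjusted p = 0.0227). *Ffar4* missed the threshold whichever array was left out (adjusted p up to 0.418), and *Slco1a5* missed the threshold when WT replicate 1, 2 or 3 or *Scnn1b*-Tg replicate 1 or 3 was left out (adjusted p up to 0.3). *Acox2*, a peroxisomal oxidase of bile acid and branched lipids, rose by 0.84 log2 (SE 0.18, limma, adjusted p = 0.04), and *Syt5*, a synaptotagmin, by 0.94 log2 (SE 0.20, limma, adjusted p = 0.034). *Acox2* missed the threshold when WT replicate 1, 2 or 3 or *Scnn1b*-Tg replicate 1 or 3 was left out (adjusted p up to 0.425), and *Syt5* missed the threshold when WT replicate 1, 2 or 3 or *Scnn1b*-Tg replicate 1 or 3 was left out (adjusted p up to 0.367). *Hpgds*, a prostaglandin D synthase gene of blood cells that was named after its values were seen, rose by 0.65 log2 (SE 0.13, limma, adjusted p = 0.0205) but missed the threshold when WT replicate 2 or 3 or *Scnn1b*-Tg replicate 1 or 3 was left out (adjusted p up to 0.139). Also named after their values were seen, 9 further genes rose by less than 1 log2, namely *1700001L19Rik*, *Ccdc181*, *Efcab10*, *Plet1*, *Clic6*, *2410004P03Rik*, *Lrwd1*, *Fsip1* and *Napepld*, from 0.45 to 0.80 log2. Those that fell in the same range were *Adgrl3*, *Dock6*, *Clstn2*, *Itih5*, *Nfat5*, *Adcy8*, *Scin*, *Itpr2*, *Atrnl1*, *Plcxd3*, *Prkce* and *Specc1l*, from -0.47 to -0.80 log2. Of these 21 genes only *Adgrl3* and *Scin* passed whichever array was left out. *Dock6* has several probe sets and fell by 0.78 log2 (limma, adjusted p = 0.0135) at the brightest and by 0.63 (adjusted p = 0.0463) at another. Its remaining probe sets did not pass, from -0.15 (adjusted p = 0.834) to -0.67 log2 (adjusted p = 0.0655). *Adgrl3* and *Clstn2* are cell adhesion genes, *Itih5* encodes a hyaluronan-binding protein, and *Nfat5* the transcription factor of the response to high salt. *Nfat5* had levels of 6.38, 6.55 and 6.18 in WT and 5.50, 5.88 and 5.64 in *Scnn1b*-Tg. It fell by 0.70 log2 (SE 0.15, limma, adjusted p = 0.0335) and missed the threshold when WT replicate 1 or 2 or *Scnn1b*-Tg replicate 1 or 3 was left out (adjusted p up to 0.327). Among genes of lymphocytes *Cd2* fell by 0.78 log2 (SE 0.17, limma, adjusted p = 0.0386) and *Ebf1*, a factor of B cells and also of stroma, by 0.57 log2 (SE 0.13, limma, adjusted p = 0.0498). *Cd2* missed the threshold whichever array was left out (adjusted p up to 0.3), and *Ebf1* missed the threshold when WT replicate 1, 2 or 3 or *Scnn1b*-Tg replicate 1 or 3 was left out (adjusted p up to 0.465). *Cd3e* differed by 0.05 (adjusted p = 0.98), and the B cell gene *Ms4a1* had levels of 6.71, 6.55 and 6.64 in WT and 5.41, 6.17 and 5.39 in *Scnn1b*-Tg and differed by -0.97 (adjusted p = 0.481).

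Cell cycle genes were high in 1 transgenic pool and muscle genes in 2, while mesothelial genes were higher in all 3. The 44 mitosis genes had a median of 0.27 log2 and the 35 DNA replication genes 0.31, and 0 of either passed in limma. At an unadjusted p of at most 0.05, 1 mitosis gene (2.27%) and 6 DNA replication genes (17.1%) were higher, against 4.14% of all genes. On neither list was any gene lower at that p. In *Scnn1b*-Tg replicate 3 the median mitosis gene was 0.76 log2 above the WT mean, and in replicates 1 and 2 it was 0.05 and 0.02 log2. Without replicate 3 the list median was 0.01. Skeletal muscle genes were high in replicates 1 and 2. *Acta1*, skeletal α-actin, had levels of 5.58, 5.17 and 5.44 in WT and 9.18, 8.34 and 5.81 in *Scnn1b*-Tg and differed by 2.38 (adjusted p = 0.0775). *Tnnt3* and *Ckm* were also highest in replicates 1 and 2 and differed by 1.68 (adjusted p = 0.0669) and 1.31 (adjusted p = 0.118). The defining muscle gene *Myh4* stayed between 3.88 and 4.26 log2 on all 6 arrays. Of 26 cardiac and skeletal muscle genes 0 passed. Of the 26, 9 were higher (34.6%, against 4.14% of all genes) and 0 lower at an unadjusted p of at most 0.05. Without *Scnn1b*-Tg replicate 3, 7 of the muscle genes passed, all higher. Mesothelial genes had a median of 0.42 log2, with *Msln* at 0.96 (adjusted p = 0.0515), and 0 of 11 passed. Of the 11, 5 were higher (45.5%, against 4.14% of all genes) and 0 lower at an unadjusted p of at most 0.05. The median mesothelial gene was 0.46, 0.23 and 0.43 log2 above the WT mean in replicates 1, 2 and 3, and the list levels did not overlap between the genotypes. The part of these cell types in the other results was not tested. Alveolar epithelial lists had medians of 0.01 (26 type II genes) and -0.05 log2 (20 type I genes), with 0 passing in limma. At an unadjusted p of at most 0.05, 1 type II gene was higher (3.85%) and 1 type I gene lower (5%). The shares over all genes were 4.14% and 4.12%. Markers of thymus, cartilage and fat (*Ptcra*, *Acan* and *Plin1*) lay between 3.69 and 4.23 log2 on all 6 arrays, near the floor of the array.

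**Figure D4:**
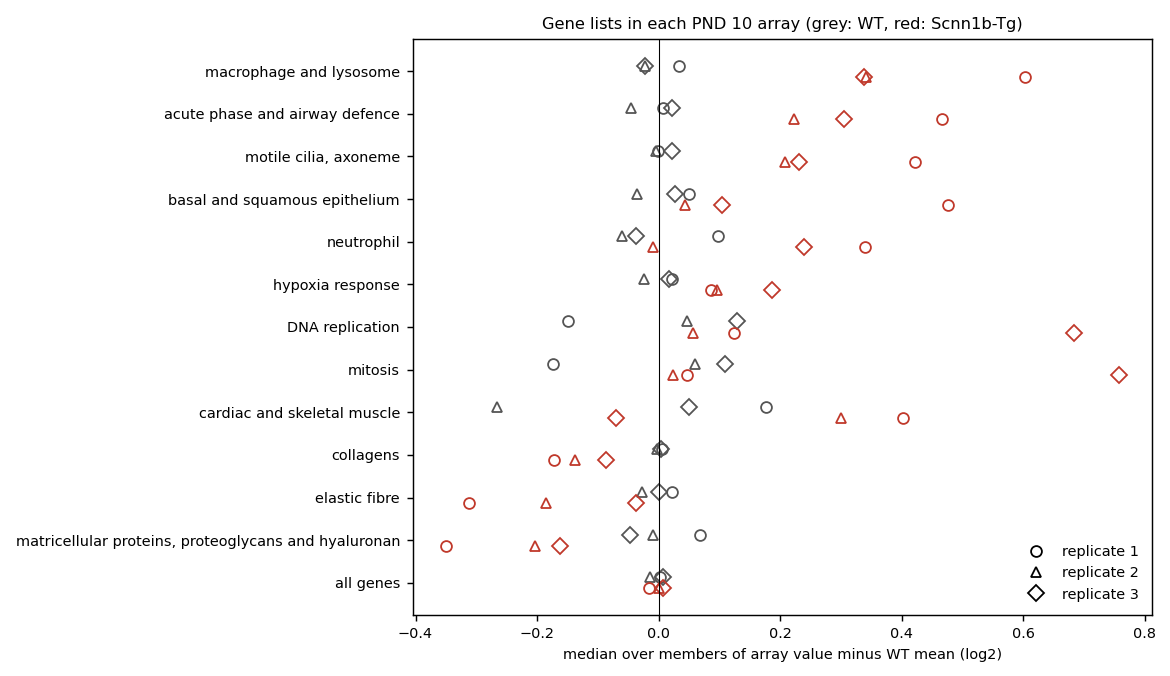
For each of 12 gene lists and all genes (rows), the median over members of the array value minus the WT mean (log2, x axis), 1 symbol per PND 10 array by replicate number, WT in grey and *Scnn1b*-Tg in red. The 3 transgenic arrays lie above WT for macrophage, acute phase and cilia genes, *Scnn1b*-Tg replicate 3 alone is high for mitosis genes at 0.76, and all genes lie near 0.

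The genotype difference at PND 10 was compared with that at the other ages, which use other arrays. At an adjusted p of at most 0.05 it differed from PND 3 in 2 genes (0.01% of all genes), from PND 0 in 14 (0.0702%) and from PND 42 in 67 (0.336%). At those ages themselves 4 (0.0201%), 3 (0.015%) and 72 genes (0.361%) were called, so PND 10 with 29 lay between the early ages and PND 42.

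*Clca1* and *Thbs2* were the genes that set PND 10 apart from PND 3. *Clca1* differed between genotypes by 0.06 log2 at PND 3, -2.47 at PND 10 and 4.05 at PND 42. The PND 10 difference was -2.54 log2 from that at PND 3 (limma, adjusted p = 0.00103) and -6.52 from that at PND 42 (adjusted p = 1.85e-11). *Chil4* and *Muc5ac* differed by -1.82 and -1.08 log2 at PND 10 and by 4.42 and 1.20 at PND 42. Their PND 10 differences lay -6.23 (limma, adjusted p = 4.75e-08) and -2.29 log2 (adjusted p = 0.000192) from those at PND 42. *Thbs2* differed by -0.15 at PND 3 and 0.12 at PND 42, and its PND 10 difference lay -1.23 log2 from the former (limma, adjusted p = 0.0199).

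Macrophage genes and *Cd177* were higher at both PND 10 and PND 42. *Mmp12* differed by -0.16 at PND 3, 1.98 at PND 10 and 4.34 log2 at PND 42, and the last step passed (limma, PND 10 minus PND 42 -2.36, adjusted p = 0.00608). *Ctsk* followed with 1.25 and 3.27 (adjusted p = 0.00187 for the step). *Gpnmb* and *Cd177* had 3.27 and 3.10 log2 at PND 42, and their steps did not pass (limma, adjusted p = 0.576 and 0.932). The macrophage and lysosome list had medians of 0.11, 0.44 and 0.79 log2 at PND 3, 10 and 42.

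The cilia list had medians of -0.15, 0.10, 0.31 and -0.08 log2 at PND 0, 3, 10 and 42. *Cfap206* differed by -0.29 at PND 42, and the step from PND 10 passed (limma, 1.21 log2, adjusted p = 0.0346). *Cfap52* and *Ak8* passed against PND 0, with 1.37 and 1.27 log2 (adjusted p = 0.0187 and 0.0282). Against PND 42, 2 of the 125 cilia genes passed. *Fbn2*, *Pdgfrb* and *Col6a3* differed by -0.04, 0.05 and 0.27 log2 at PND 42. Their steps from PND 10 passed (limma, adjusted p = 0.0455, 0.046 and 0.0453). *Anxa8* and *Clu* differed at PND 42 by 0.04 and 0.14 log2, and their steps from PND 10 passed (adjusted p = 0.0496 and 0.0364).

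**Figure D5:**
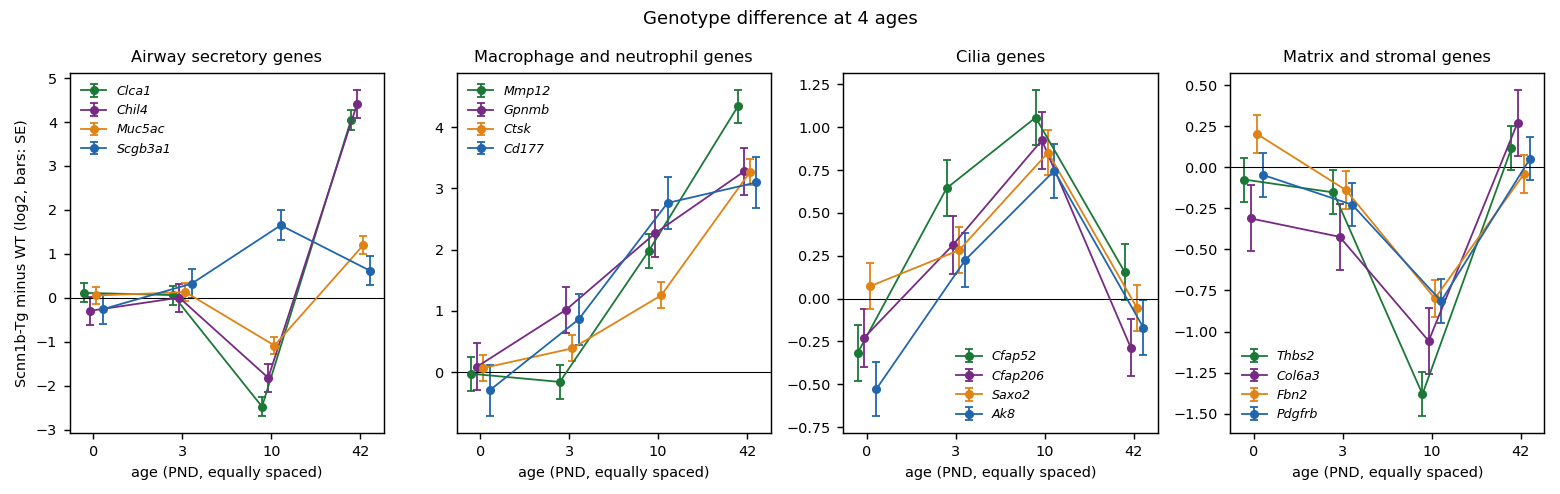
Difference between *Scnn1b*-Tg and WT (log2, y axis, bars are SE, n = 3 pools per group) at PND 0, 3, 10 and 42 (x axis, equally spaced) for 16 genes in 4 panels with separate y scales. *Clca1* goes from -2.47 at PND 10 to 4.05 at PND 42, while the cilia genes shown have their highest differences and the matrix genes their lowest at PND 10.

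The change from PND 3 to PND 10 in each genotype is given side by side, since both genotypes' changes rest on the PND 10 arrays compared above. *Thbs2* differed between these ages by 1.63 log2 in WT (limma, adjusted p = 3.22e-07) and by 0.40 in *Scnn1b*-Tg (adjusted p = 0.113). *Fbn2* differed by 0.82 and 0.16, *Pdgfrb* by 1.35 and 0.76, and *Col6a3* by 1.54 and 0.90 log2 in WT and *Scnn1b*-Tg. *Cfap52* differed by -0.88 and -0.47 log2 and *Cfap206* by -1.02 and -0.41 in the same order. *Mmp12* differed by 1.0 in WT and 3.14 log2 in *Scnn1b*-Tg. Between genotypes these changes passed as different for *Thbs2* and *Clca1* alone.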

How the data were processed

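The deposited values are log2 intensities that the authors made from the scanner files in Partek (version 6.5 per the labels) by RMA, with adjustment for GC content and probe sequence, quantile normalization and median polish. Of 35556 rows, 21789 carry exactly 1 gene symbol in the platform annotation and were tested, and 19938 genes were each described by their brightest row over the 24 arrays. limma 3.58.1 in R 4.3.3 fitted 8 group means to all 24 arrays, and p-values were adjusted by Benjamini-Hochberg over the 21789 rows. Calls required 2-fold or more beside an adjusted p no higher than 0.05. Replicates are pools, and their number limits the precision. Each SE and p-value rests on 1 spread between pools per gene, taken within the 8 groups of all ages and moderated across genes. It is therefore not the spread of the PND 10 pools alone. *Cd177* had an SD of 1.37 log2 among its transgenic PND 10 pools and an SE of 0.42. The members, the 44 gene lists, the motifs and the genes named were chosen with earlier results of these data known. The genes named are the called genes, further passing genes by size, and for each list the members with the lowest p and its markers. Promoters came from RefSeq (GRCm38.p6) and matched 62 of the 87 passing genes. Tested on simulated data with the same 21789 rows, the fit passed 61 of 67 rows changed by 1 log2 and 67 of 67 changed by 1.5, and 5 unchanged rows passed. Of the 67 rows changed by 1 log2, 32 (47.8%) were also called at 2-fold. The simulated noise was independent, with 1 SD per row on all arrays. No simulated array stood apart and no spread differed between ages, so the simulation does not cover those features of the real arrays. Alternatives changed the moderation, the arrays fitted, array weights, the filter on dim rows, the row per gene, the normalization, the fold threshold and the replicate number as a block.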

Additional observations from a re-analysis of the deposited data

Results flagged for a closer look

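Among the genes picked by the naming rule or described above, those below had a genotype difference at PND 10 that differed from the difference at another age, by limma's test of the difference itself at an adjusted p of at most 0.05. Each value is the PND 10 difference minus the other one, in log2, over 3 pools per group. Groups of 3 pools are too small to test for a single outlying sample. Against PND 3 there were 2 genes, *Clca1* -2.54 and *Thbs2* -1.23.

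Against PND 0 there were 11. The genes above 0 were *Cfap52* 1.37, *Ak8* 1.27, *Tmem212* 1.22, *Sncg* 1.20 and *Clu* 0.94, of which *Cfap52*, *Tmem212* and *Ak8* belong to ciliated cells. The genes below 0 were *Clca1* -2.59, *Thbs2* -1.31, *Nfat5* -1.14, *Fbn2* -1.0, *Adgrl3* -0.98 and *Pde3a* -0.91. *Clca1* and *Thbs2* were on this list against all 3 ages.

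Against PND 42 there were 40. Among genes of airway secretory cells the values were *Clca1* -6.52, *Slc26a4* -3.90, *Muc5ac* -2.29 and *Agr2* -1.10. Among chitinase, chitinase-like and resistin-like genes they were *Chil4* -6.23, *Chil3* -3.23, *Retnla* -2.79 and *Chia1* -2.23. The study counts *Chil3*, *Chil4* and *Retnla* among markers of alternatively activated macrophages. For genes of macrophages, dendritic cells and eosinophils or their chemokines they were *Rnase2a* -3.43, *Mmp12* -2.36, *Ccl24* -2.17, *Ctsk* -2.02, *Mgl2* -1.99, *Ccl17* -1.88 and *Cd1d1* -1.30. For matrix and stromal genes they were *Thbs2* -1.5, *Ltbp2* -1.45, *Col6a3* -1.33, *Pxdn* -1.17, *Itga2* -1.17, *Cemip* -1.15, *Agrn* -0.98, *Pdgfrb* -0.87, *Fbn2* -0.76 and *Ltbp4* -0.65. The others below 0 were *Scin* -1.12, *Acaca* -1.07, *Dock6* -1.01, *Nfat5* -1.0, *Itpr2* -0.86 and *Plcxd3* -0.76. Above 0, where the transgenic level was relatively higher at PND 10 than at PND 42, were *Upk3b* 1.37, *Cyp2s1* 1.22, *Cfap206* 1.21, *Anxa8* 1.15, *1700001L19Rik* 1.12, *Tekt1* 0.97, *Saxo2* 0.91, *Clu* 0.85 and *Fsip1* 0.60.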

How the results depend on the processing

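Of the 33 probe sets called at PND 10 (23 higher, 10 lower), 15 (12 and 3) remained without moderation of the variances. With only the 6 PND 10 arrays 119 were called (46 and 73), of which 30 were among the 33. Without a fold threshold 93 passed (53 and 40), at 1.5-fold 84 (50 and 34), and with 1 row per gene 6 were lower. Leaving out 1 array gave 10 to 59 calls, 7 to 37 higher and 3 to 22 lower. The other settings (trend and robust prior, array weights, dim rows removed, all rows, quantile normalization repeated, medians subtracted) gave 28 to 44 calls, with 32 of the 33 after repeated quantile normalization, 25 with array weights and 24 with all rows. The replicate numbers are of separate pools and do not pair them (correlations of same-numbered deviations 0.15, 0.04 and -0.03). With the replicate block 50 were called, 25 of them lower, and 31 were among the 33. Of the 87 passing genes 25 missed the threshold under the block.

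The 2 probe sets that differed from PND 3 became 1 without moderation, with only the arrays of those ages or with the replicate block, 34 with array weights, and 1 to 9 without 1 array. The 70 against PND 42 became 21 without moderation and 22 to 77 without 1 array. The 14 against PND 0 became 6 without moderation, 9 with only those arrays, 595 with array weights, 50 with the replicate block, 39 without dim probe sets, 50 with array medians subtracted, and 2 to 57 without 1 array. The cause of these shifts was not tested. Of the gene values under the alternatives, 4821 kept their side of the threshold, 422 lost it, 132 gained it, and none of the 87 passing genes changed direction in any setting.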

Other observations

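Complement genes, *Cfb* and *Clu* among them, were mostly higher at PND 10. Of 28 measured, those 2 rose and 0 fell, the median was 0.17 log2 (0.09 to 0.24 with 1 array left out), and 10 were higher (35.7%, against 4.14% of all genes) and 0 lower at an unadjusted p of at most 0.05. *C3ar1*, the receptor of the C3a fragment on myeloid cells, had levels of 5.21, 5.30 and 5.06 in WT and 6.26, 6.36 and 5.81 in *Scnn1b*-Tg and differed by 0.95 (adjusted p = 0.114) log2. *C2*, a protease of the classical pathway, differed by 0.57 (adjusted p = 0.175), and *C1qb*, a macrophage product, by 0.68 (adjusted p = 0.136). *Itgb2*, the shared subunit of leukocyte integrins and complement receptors, differed by 0.75 (adjusted p = 0.181) (limma, Benjamini-Hochberg, 3 pools against 3).

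Metalloproteinases went both ways. Of 33 proteases and inhibitors *Mmp12* rose and *Adamts12* fell, and the median was -0.04 log2. *Adamts5*, which cleaves aggrecan and versican, differed by -0.48 (adjusted p = 0.177) log2, and *Slpi*, an epithelial inhibitor of neutrophil elastase, by 0.56 (adjusted p = 0.203). Of 34 interferon response genes 0 passed in limma, with a median of 0.09 log2, and *Oas1a* differed by 0.64 (adjusted p = 0.45). Of the 34, 1 was higher (2.94%, against 4.14% of all genes) and 0 lower at an unadjusted p of at most 0.05. Of 22 genes of anion and fluid transport *Clca1* alone passed, and the water channel gene *Aqp5* differed by 0.20 (adjusted p = 0.764). Of 11 MHC class II genes 0 passed, and *H2-Aa* differed by -0.31 (adjusted p = 0.735). At an unadjusted p of at most 0.05, 1 class II gene was higher and 1 lower (9.09% each, against 4.14% and 4.12% of all genes). In the growth gene list of 23 imprinted genes 0 passed, and *Igf2*, a fetal growth factor gene, differed by 0.77 (adjusted p = 0.0894). On this list 2 were higher (8.7%, against 4.14% of all genes) and 1 lower (4.35%, against 4.12%) at an unadjusted p of at most 0.05.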
